A study of Mus musculus with 24 samples.

Results

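The early day step in mouse liver, from lights on to 4 h later, was examined in maps of cisplatin repair made with XR-seq. XR-seq captures and sequences the single-stranded fragments that excision repair releases, and a read therefore places 1 removal event on the genome. The step was taken from 4 of the 24 libraries of the series: 2 liver libraries at zeitgeber time (ZT, hours after lights on) 0 and 2 at ZT4. Reads on the transcribed strand (TS) of each gene at ZT4 were set against those at ZT0, over entries that name 1 gene symbol. Each time had its own mean, and all 12 liver libraries (6 times) gave 1 estimate of the spread. All animals were wild-type C57BL/6J females, 6 months old, under a lighting cycle of 12 h on and 12 h off. Cisplatin was injected into the peritoneum at 10 mg/kg and tissue was collected 2 h later, so every group carried the drug and none was untreated. Whether the 2 replicates at 1 time are different animals is not stated in the labels. The p-values therefore reflect spread from library to library, which could be technical. Liver was taken whole. Fewer cells of a type and less repair per cell cannot be told apart in such libraries.

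Cisplatin crosslinks neighbouring purines. When RNA polymerase II stalls at such an adduct, transcription-coupled repair removes it from the template strand, which is why TS reads follow how much a gene is transcribed, while the non-transcribed strand (NTS) is served by global repair. The circadian clock is a loop of transcription. CLOCK or NPAS2 pairs with BMAL1 (Arntl) at E-boxes and switches on the period and cryptochrome genes, whose proteins inhibit the pair, the genes for REV-ERB (Nr1d1, Nr1d2), which represses Arntl and Npas2 through ROR elements, and the PAR bZIP factors DBP, TEF and HLF, which act at D-boxes. In liver the morning is the part of the day when the activator genes are leaving their peak and the repressor and D-box genes are beginning their climb.

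TS reads of the 4 libraries numbered 9538537 and 16635927 at ZT0 and 16759888 and 14878598 at ZT4. Levels are given in CPM, a gene's reads relative to its library's total of TS reads after TMM scaling. ZT0 replicate 1, the shallowest of the 12 liver libraries, stood apart from the rest. Its log2 CPM correlated at 0.975 to 0.984 with the other 11, which correlated at 0.984 to 0.994 among themselves (Pearson, across genes, which are not independent replicates). All 14 endothelial markers were higher in it than in any other liver library. Their summed level was 857 CPM, against 289 in ZT0 replicate 2 and 289 to 422 over the other 11. The 13 tested Kupffer and other immune markers summed to 82.8 CPM in it and to 43.2 to 63.9 in the others, with 6 of the 13 above every other library. The 10 hepatocyte markers summed to 620 CPM in it and to 797 to 958 in the others, with 8 of the 10 below every other library. Hepatocyte markers were thus present in every library. Genes of other kinds differed too. Over 16016 genes that averaged 20 reads or more, the ZT0 replicates differed by over 0.5 in log2 CPM at 25.8%, and replicates of the other times at 2.94% to 6.69%. The share of all genes highest or lowest in ZT0 replicate 1 is not given here, so the marker counts are a description. The values of many genes and lists below moved when ZT0 replicate 1 was left out, and the median of each list is plotted with and without it.

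**Figure D1:**
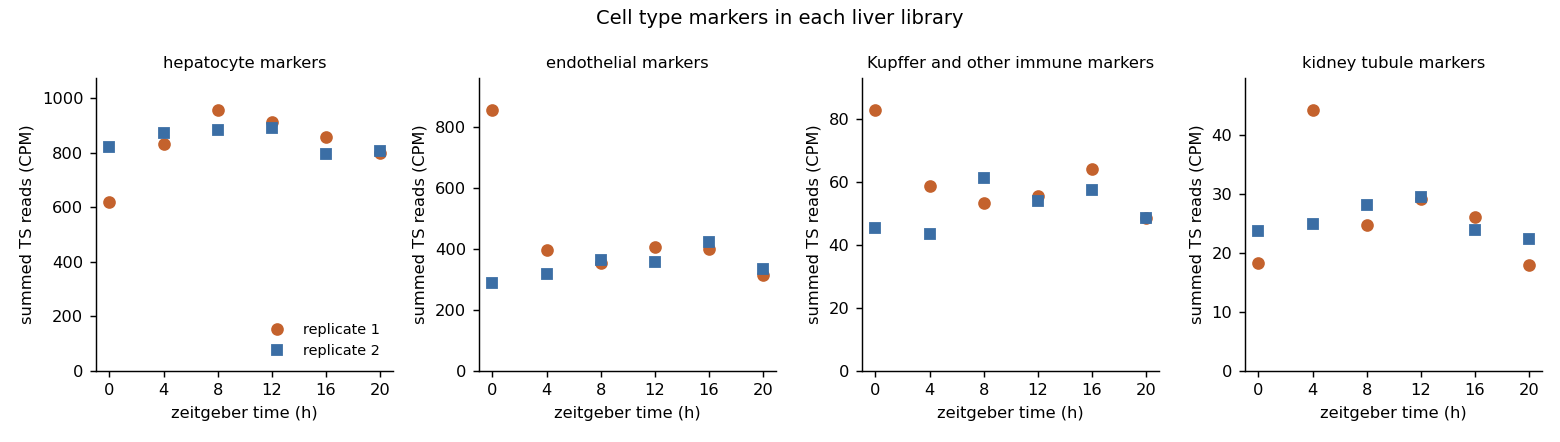
Summed TS reads (CPM) of 4 marker lists in each of the 12 liver libraries by zeitgeber time, with replicate 1 as circles and replicate 2 as squares. ZT0 replicate 1 has the highest endothelial sum (857) and the lowest hepatocyte sum (620), and ZT4 replicate 1 the highest sum of kidney tubule markers (44.3).

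No gene passed the test of the step. With edgeR's quasi-likelihood test, 0 of 18584 genes (0.00%) had an adjusted p under 0.05. At an unadjusted p under 0.05, 391 genes (2.10%) were higher at ZT4 and 696 (3.75%) lower. The 2 libraries of ZT0 differed from each other more than the means of the 2 times did. Over the 16016 genes that averaged 20 reads or more, the median absolute log2 difference (with 0.5 added to each CPM) between the replicates was 0.25 at ZT0, 0.12 at ZT4, and 0.10 to 0.12 at the other 4 times. The same measure between the means of ZT4 and ZT0 was 0.12, though means of 2 libraries vary less than single libraries. Between the mean of ZT4 and a single ZT0 library it was 0.20 for replicate 1 and 0.12 for replicate 2. Both ZT4 libraries lay above both ZT0 libraries for 14.4% of the genes and below them for 13.1%, which is the background for the counts of genes whose libraries do not overlap. Without ZT0 replicate 1, edgeR called 2 genes higher (0.0108%) and 6 lower (0.0323%). Without ZT0 replicate 2, which leaves the step to rest on the library that stands apart, 2524 genes were called. DESeq2's Wald test on all libraries called 17 entries among 15341 with an adjusted p, 9 higher (0.0587%) and 8 lower (0.0521%).

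Among the clock activators, Npas2 had the largest difference and it pointed down. Npas2 encodes the partner of BMAL1 that can stand in for CLOCK (chromosome 1, 39194272 to 39363240, plus strand, mm10). It had 428 and 485 CPM in the ZT0 libraries and 273 and 280 in those of ZT4. Both ZT4 libraries were low and the times did not overlap. The log2 change was -0.72 ± 0.14 (SE), 0.605 times the ZT0 level, with edgeR's adjusted p at 0.407. It was -0.81 ± 0.14 without ZT0 replicate 1 (adjusted p = 0.0998), and DESeq2 called it (adjusted p = 0.00313). Cry1, whose protein inhibits the BMAL1 pair (chromosome 10, 85131700 to 85185054, minus strand), had 110 and 131 CPM at ZT0 and 92.0 and 95.0 at ZT4. Again both ZT4 libraries lay below both of ZT0, with a log2 change of -0.36 ± 0.12 that missed the threshold (adjusted p = 0.758).

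The other members of this list of 7 split. Nfil3, a repressor at D-boxes, was the one member with both ZT4 libraries above ZT0, at 50.3 and 55.5 and then 64.2 and 67.5 CPM (0.31 ± 0.10, adjusted p = 0.758). Arntl, which encodes BMAL1 itself, had 417 and 425 CPM at ZT0 and 411 and 396 at ZT4. Both ZT4 libraries were lower, but the log2 change of -0.06 ± 0.19 was well within its error (adjusted p = 0.965). Clock, at 159 and 187 and then 168 and 167 CPM, and Rora, at 510 and 465 and then 487 and 502, overlapped between the times. Both entries overlap another on the same strand, and part of their reads cannot be assigned. In all, 1 of the 7 had its libraries apart and higher and 4 apart and lower, beside 14.4% and 13.1% of all genes. The median log2 change was -0.06 (-0.13 without ZT0 replicate 1) against -0.02 over all genes.

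The 2 genes of the BMAL1 arm had different courses after ZT0. Arntl went from 411 and 396 CPM at ZT4 to 125 and 71.5 at ZT8, whereas Npas2 stood at 273 and 280 at ZT4 and at 18.2 and 14.7 at ZT8. Their levels at ZT8 are given as a description.

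Promoter sequences of 5 clock genes are shown because their members stand at the ends of the step or hold the motifs of the loop. They are the 250 bases before the start site on the gene's strand, from RefSeq (GRCm38.p6), in lower case. Capitals mark CACGTG (the E-box), TTATGTAA (a D-box form) and AGGTCA (core of the ROR element), searched on both strands. They also mark TTANNTAA, a looser string with its middle bases free. It takes in TTATGTAA but also letters that need not be a D-box, such as TTAGATAA in Tef. The windows are chr1:39194022-39194271 on the plus strand for Npas2, chr10:85185055-85185304 on the minus strand for Cry1, chr15:81802423-81802672 on the plus strand for Tef, chr3:95882229-95882478 on the minus strand for Ciart and chr4:151044666-151044915 on the minus strand for Per3.
Npas2: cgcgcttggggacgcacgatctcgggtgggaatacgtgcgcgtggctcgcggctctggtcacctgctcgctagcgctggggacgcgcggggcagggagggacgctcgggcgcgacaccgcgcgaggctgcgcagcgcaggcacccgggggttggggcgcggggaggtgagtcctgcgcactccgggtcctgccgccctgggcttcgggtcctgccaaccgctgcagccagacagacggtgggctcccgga
Cry1: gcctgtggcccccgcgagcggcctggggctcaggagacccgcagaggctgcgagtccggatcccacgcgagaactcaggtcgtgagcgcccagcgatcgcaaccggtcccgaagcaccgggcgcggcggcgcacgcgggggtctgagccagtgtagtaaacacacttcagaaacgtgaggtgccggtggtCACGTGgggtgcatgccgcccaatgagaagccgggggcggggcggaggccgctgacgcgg
Tef: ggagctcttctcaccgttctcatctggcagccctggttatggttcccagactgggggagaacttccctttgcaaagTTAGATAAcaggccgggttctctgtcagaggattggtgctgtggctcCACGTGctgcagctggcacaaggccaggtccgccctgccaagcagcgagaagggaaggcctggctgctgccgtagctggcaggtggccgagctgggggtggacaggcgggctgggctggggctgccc
Ciart: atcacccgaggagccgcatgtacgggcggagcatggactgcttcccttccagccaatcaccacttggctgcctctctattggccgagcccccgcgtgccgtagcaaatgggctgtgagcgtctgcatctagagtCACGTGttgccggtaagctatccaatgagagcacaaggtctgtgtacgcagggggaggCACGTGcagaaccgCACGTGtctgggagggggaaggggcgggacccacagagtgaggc
Per3: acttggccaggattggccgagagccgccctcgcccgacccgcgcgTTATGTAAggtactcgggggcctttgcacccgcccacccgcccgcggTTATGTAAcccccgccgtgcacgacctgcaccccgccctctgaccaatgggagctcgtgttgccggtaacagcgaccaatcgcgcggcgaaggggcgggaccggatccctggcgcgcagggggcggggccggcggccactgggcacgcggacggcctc

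Ciart held 3 copies of CACGTG, at bases 116, 58 and 44 before the start. Tef held 1 at base 127 with TTANNTAA at base 174, Cry1 held 1 CACGTG at base 60, and Per3 held TTATGTAA at bases 205 and 158. The Npas2 window held none of these letters. Of the 21 clock genes tested, 17 had a promoter in the table. Of the 17, 5 held CACGTG (Cry1, Per1, Tef, Bhlhe41 and Ciart), 2 TTANNTAA (Per3 and Tef), 1 TTATGTAA (Per3) and 3 AGGTCA (Nfil3, Per1 and Nr1d2). Over all 32851 promoters of the same length these letters were found in 6.02%, 5.43%, 0.819% and 14.0%. A match is a description of the letters in this window, and E-boxes further away were not searched. The 5 holders of CACGTG include Cry1, whose ZT4 libraries were the lower ones, and Tef, Bhlhe41 and Ciart, whose ZT4 libraries were the higher ones.

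Among the 14 repressor, E-box and D-box genes, 12 had a positive log2 change. For 6 of them both ZT4 libraries lay above both ZT0 libraries, and for none below, beside 14.4% and 13.1% of all genes. The median log2 change was 0.24 (0.21 without ZT0 replicate 1). With all libraries edgeR called none of the 14 and DESeq2 called 1 (Tef), and in edgeR 5 had an unadjusted p under 0.05 (Tef, Nr1d1, Hlf, Bhlhe41 and Ciart, all higher). Clock genes were chosen for study with their rhythm in these samples known, so this count is a description.

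Tef had the smallest p of the list. This PAR bZIP gene (chromosome 15, 81802673 to 81826863, plus strand) had 54.6 and 45.3 CPM at ZT0 and 71.4 and 74.8 at ZT4. Both ZT4 libraries were high, the replicates of ZT4 lay close together, and the times did not overlap. The log2 change was 0.56 ± 0.09, 1.47 times the ZT0 level, with edgeR's adjusted p at 0.190. It was called without ZT0 replicate 1 (0.69 ± 0.09, adjusted p = 0.0223) and by DESeq2 (0.56 ± 0.12, adjusted p = 0.00219). Its relative Hlf had 145 and 159 CPM at ZT0 and 180 and 172 at ZT4 (0.21 ± 0.09, adjusted p = 0.758), so that this gene too was apart between the times.

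Dbp, the third PAR bZIP gene and a direct BMAL1 target (chromosome 7, 45705247 to 45710203, plus strand), turned on 1 library. It had 9.09 and 2.97 CPM at ZT0 and 9.56 and 8.07 at ZT4, and its fewest reads in a library were 48. ZT0 replicate 1 lay within the range of ZT4 and replicate 2 far below it. The log2 change was 0.64 ± 0.37 with all libraries (adjusted p = 0.758). It was called without ZT0 replicate 1, at 1.57 ± 0.24 (adjusted p = 0.050, just inside the threshold), and was -0.04 without ZT0 replicate 2. At ZT8 Dbp stood at 40.3 and 37.7 CPM, above every library of this step. Dbp overlaps Sphk2 on the other strand, where the TS of one gene is the NTS of the other.

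**Figure D2:**
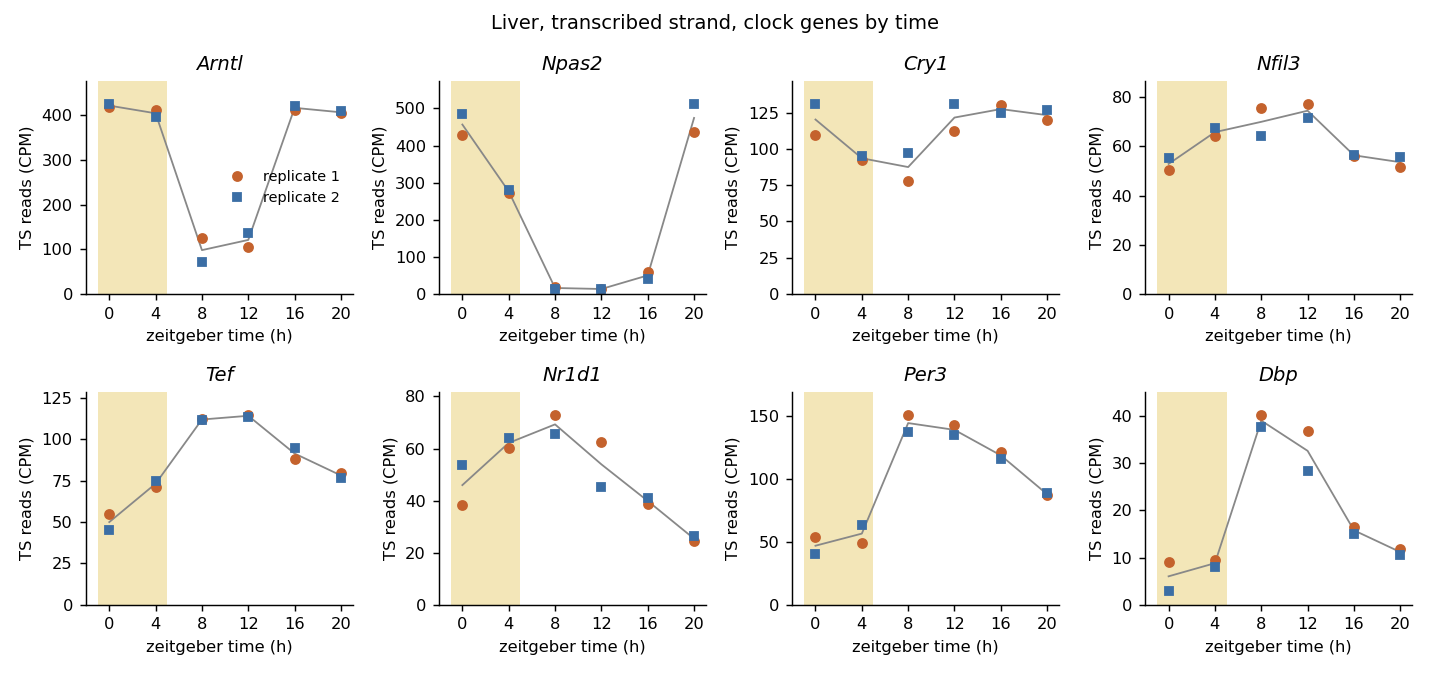
TS reads (CPM) of 8 clock genes in each liver library by zeitgeber time, with replicate 1 as circles, replicate 2 as squares, a line through the means and the early day step shaded. Npas2 and Cry1 are lower at ZT4 than at ZT0 in both libraries, Nfil3, Tef and Nr1d1 higher, and Arntl, Per3 and Dbp do most of their moving after ZT4.

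Nr1d1, which encodes REV-ERB alpha (chromosome 11, 98767932 to 98775377, minus strand), had 38.2 and 53.7 CPM at ZT0 and 60.4 and 63.9 at ZT4. The times did not overlap, with a log2 change of 0.43 ± 0.17 (adjusted p = 0.758) that was 0.21 ± 0.15 without ZT0 replicate 1. Its relative Nr1d2 had 54.9 and 79.8 CPM at ZT0 and 75.6 and 85.9 at ZT4. There ZT0 replicate 2 lay inside the range of ZT4, and the log2 change of 0.25 was 0.02 without ZT0 replicate 1.

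Bhlhe41 (DEC2), a repressor at E-boxes, had 3.90 and 2.48 CPM at ZT0 and 4.84 and 6.14 at ZT4 (0.82 ± 0.32, adjusted p = 0.758). Ciart, a repressor of the BMAL1 pair, had 5.2 and 4.34 and then 5.88 and 10.7 CPM (0.81 ± 0.27, adjusted p = 0.758). Both were low genes with their ZT4 libraries higher, and the ZT4 replicates of Ciart lay well apart. Bhlhe40 (DEC1) had 28.7 and 29.0 CPM at ZT0 and 35.5 and 31.8 at ZT4 (0.22 ± 0.13). Ciart overlaps C920021L13Rik and Bhlhe40 overlaps 0610040F04Rik, each on the other strand.

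The period genes gave no common picture over this step. Per1 had 101 and 98.1 CPM at ZT0 and 99.1 and 106 at ZT4 (0.04 ± 0.11). Per2 had 156 and 125 and then 98.4 and 156, with ZT4 replicate 1 the lowest of the 4 and ZT4 replicate 2 close to the highest (-0.14 ± 0.18). Per3 had 53.7 and 40.0 and then 49.4 and 63.5 (0.28 ± 0.14, and 0.49 ± 0.13 without ZT0 replicate 1, adjusted p = 0.269). At ZT8 Per2 stood at 297 and 277 CPM and Per3 at 151 and 137, so these 2 genes lay above every ZT0 and ZT4 library by then. Cry2 (149 and 165, then 161 and 178 CPM), Usp2 (66.1 and 52.6, then 68.5 and 60.3) and Wee1 (27.9 and 47.8, then 30.9 and 36.0) overlapped between the times. Usp2 encodes a deubiquitinase and Wee1 a cell cycle kinase under clock control.

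**Figure D3:**
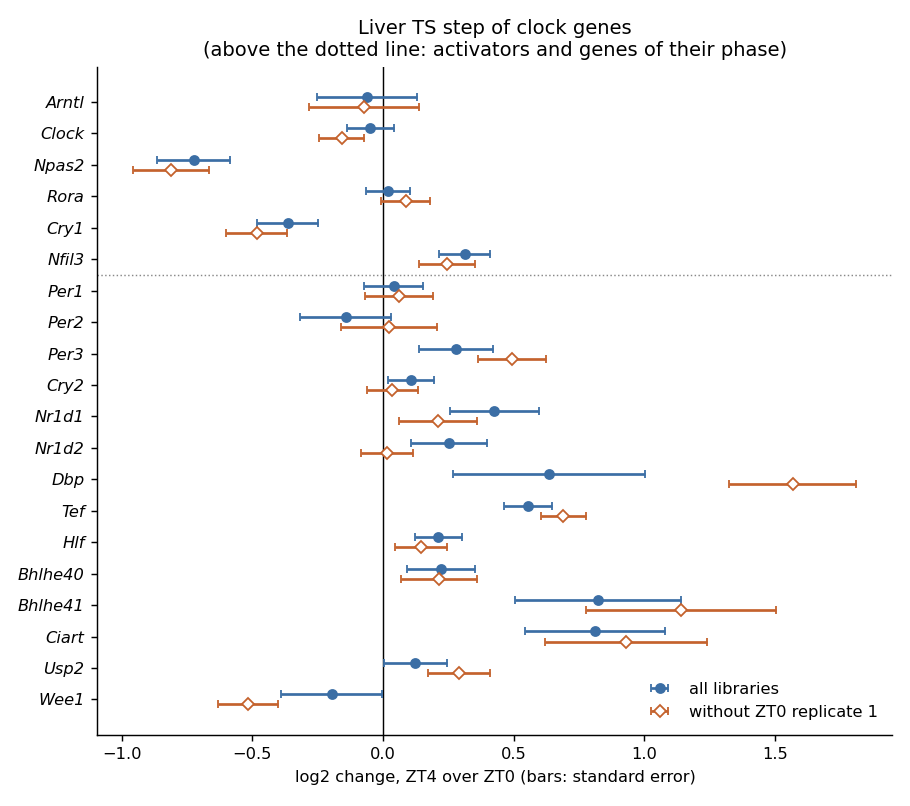
Log2 change from ZT0 to ZT4 of TS reads of 20 clock genes in liver, with all libraries (filled circles) and without ZT0 replicate 1 (open diamonds). Bars are standard errors of the edgeR fit, and the dotted line parts the 6 activators and genes of their phase (top) from the 14 repressor, E-box and D-box genes, among which Dbp moves most with that library (0.64 and 1.57).

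Outside the lists, some genes were called by DESeq2 or without ZT0 replicate 1 and are named here after their values were seen. The 17 entries called by DESeq2 come from 13 symbols. All 17 had libraries that did not overlap between the times, beside 14.4% of all genes apart and higher and 13.1% lower. They were picked by a test on these same libraries, so their separation is a description and no further evidence. Of the 8 called without ZT0 replicate 1, 3 overlapped once that library was counted. Tef, Gas7 and 1700010I14Rik were called both ways. The strongest fold among the higher entries belonged to 1810053B23Rik, a transcribed locus on chromosome 16 (minus strand) listed as 5 overlapping entries that share reads and count as 1 observation. Its entry at 93343716 to 93358712 had 5.95 and 7.87 CPM at ZT0 and 15.4 and 23.0 at ZT4, 2.74 times the ZT0 level (1.45 ± 0.23, edgeR's adjusted p = 0.190). Cpm, which encodes carboxypeptidase M, had 28.6 and 35.0 CPM and then 54.6 and 55.4 (0.78 ± 0.14, adjusted p = 0.236). Azin2, an antizyme inhibitor of polyamine metabolism, had 22.0 and 22.7 and then 38.7 and 36.5 (0.75 ± 0.16, adjusted p = 0.542). Fhad1 had 23.9 and 37.7 and then 71.0 and 63.3 (1.11 ± 0.25, adjusted p = 0.758), and overlaps Fhad1os1 on the other strand.

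The lower ones were mostly long genes. Gfod1 (108.654 kb) had 250 and 270 CPM at ZT0 and 141 and 179 at ZT4, with a log2 change of -0.71 ± 0.11. Gas7 (155.995 kb) had 114 and 130 and then 64.7 and 77.8 (-0.78 ± 0.13), and was called without ZT0 replicate 1 at -0.86 (adjusted p = 0.050, just inside the threshold). Robo1 (382.952 kb), a receptor for SLIT guidance cues, had 128 and 137 and then 83.6 and 92.0 (-0.60 ± 0.10). Eml6 (282.983 kb) had 96.8 and 83.6 and then 57.1 and 59.9 (-0.62 ± 0.10), and Fut8 (237.893 kb), the core fucosyltransferase, had 154 and 146 and then 116 and 113 (-0.38 ± 0.07). Eml6 overlaps another entry on the same strand and Rtn4 on the other, and part of its reads cannot be assigned. With edgeR's adjustment Gfod1, Gas7, Robo1 and Eml6 stood at 0.190 and Fut8 at 0.291. The shorter 1700010I14Rik (19.987 kb) had 23.1 and 46.0 and then 13.2 and 18.0, at -1.16 ± 0.27 with all libraries and -1.56 ± 0.17 without ZT0 replicate 1 (adjusted p = 0.00686).

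Besides Dbp, 4 genes were called without ZT0 replicate 1 and not by DESeq2. All 4 were lower at ZT4, and in each of them that library lay nearer to ZT4 than ZT0 replicate 2 did. Phospho1, a phosphatase gene, had 17.4 and 36.3 CPM at ZT0 and 15.1 and 17.5 at ZT4. Nid2, which encodes the basement membrane protein nidogen 2, had 123 and 173 and then 101 and 104. Gm29685 had 4.55 and 20.6 and then 7.91 and 6.94, and 1 of the 2 entries of the prolactin receptor gene Prlr had 83.9 and 108 and then 73.8 and 62.7. Phospho1 overlaps Abi3 and Nid2 overlaps 2700060E02Rik on the other strand, and this Prlr entry overlaps another on the same strand.

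Most other gene lists had small positive medians, many of which were smaller or negative without ZT0 replicate 1. The median hardly moved for the glucocorticoid (0.12 and 0.13) and ribosomal (0.09 and 0.09) lists. For the immediate early list it rose from 0.06 to 0.13. Of 17 lists that are neither clock genes nor cell type markers, 16 had a median log2 change above 0 with all libraries (range -0.00 to 0.17), and 11 without ZT0 replicate 1 (range -0.07 to 0.13). No member of any of the 26 lists was called in edgeR with all libraries. Over all genes the share apart and higher ran from 20.2% in the shortest quartile of gene length to 4.97% in the longest. The share apart and lower ran from 9.00% to 18.1%. Hepatocyte markers had a median of 0.23, and -0.05 without that library. The part of cell make-up in these medians was not tested.

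**Figure D4:**
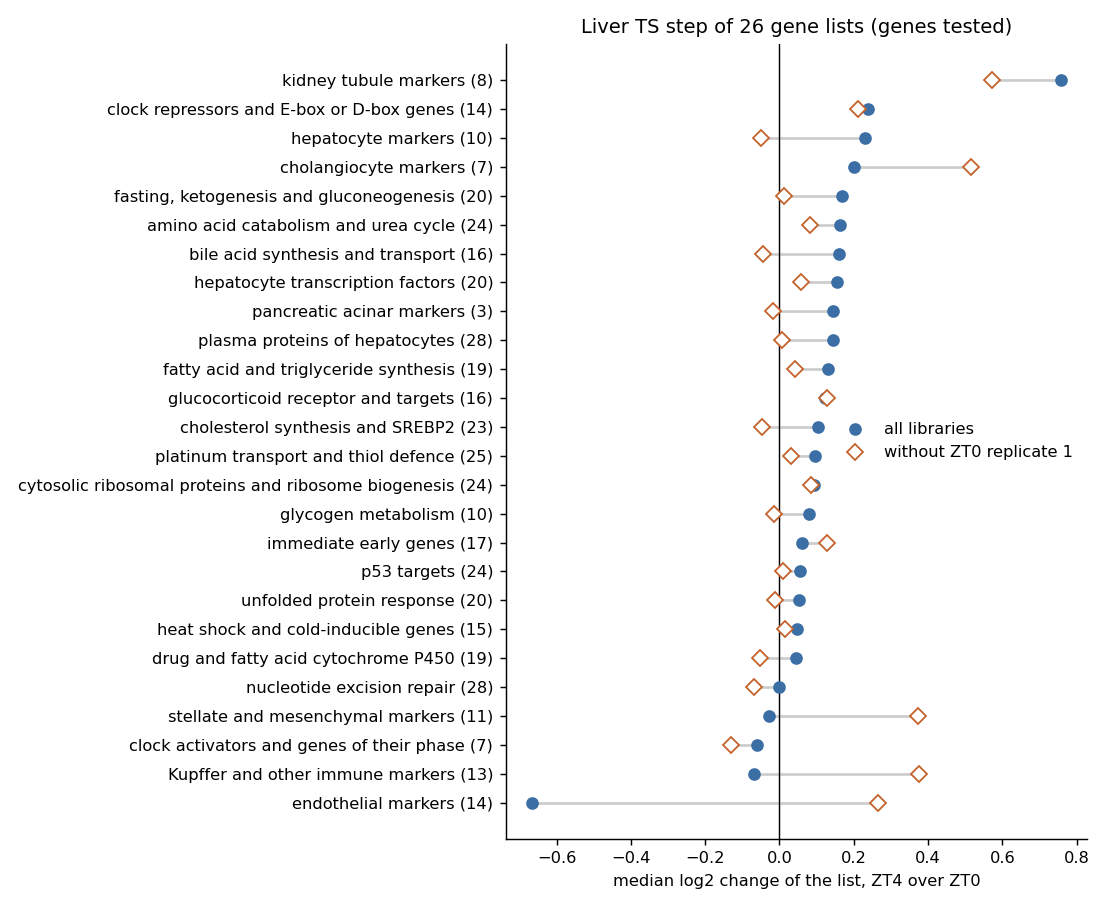
Median log2 change of TS reads from ZT0 to ZT4 in 26 gene lists (number of genes tested in brackets), with all libraries (filled circles) and without ZT0 replicate 1 (open diamonds), joined by a line. Endothelial markers go from -0.67 to 0.27, while the clock repressor list stays at 0.24 and 0.21.

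Genes of amino acid catabolism and the urea cycle leaned upward with all libraries. Of 24, 13 had both ZT4 libraries above ZT0 and none had both below, beside 14.4% and 13.1% of all genes. The median was 0.16 (0.08 without ZT0 replicate 1). Arg1, the arginase of the urea cycle, had 24 and 31.8 CPM at ZT0 and 36.2 and 36.5 at ZT4 (0.37 ± 0.13, and 0.19 ± 0.10 without ZT0 replicate 1). Prodh, which opens proline breakdown, had 73.7 and 88.4 and then 104 and 99.7 (0.33 ± 0.10, and 0.20 ± 0.10 without that library). In both genes ZT0 replicate 1 was the lowest of the 4 libraries.

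Among 19 genes of fatty acid and triglyceride synthesis, 10 were apart and higher and none lower, beside 14.4% and 13.1% of all genes. Their median was 0.13 (0.04 without ZT0 replicate 1). Lpin1, the phosphatidate phosphatase lipin 1, had 199 and 182 CPM and then 222 and 228 (0.25 ± 0.07), and here the change was as large without ZT0 replicate 1 (0.31 ± 0.08). Dgat2, which makes triglyceride, had 124 and 163 and then 176 and 175 (0.28 ± 0.11, and 0.10 without that library). Of 20 genes of fasting, ketogenesis and gluconeogenesis, 7 were apart and higher (median 0.17, and 0.01 without ZT0 replicate 1). The gluconeogenic Fbp1 had 69.9 and 77.1 and then 93.2 and 91.8 (0.33 ± 0.08), and Irs2, the insulin receptor substrate, 97.1 and 96.1 and then 110 and 114 (0.21 ± 0.09).

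Among 16 genes of the glucocorticoid receptor and its targets, 5 were apart and higher and none lower, beside 14.4% and 13.1% of all genes. Their median was 0.12 (0.13 without ZT0 replicate 1). Zbtb16, a zinc finger gene induced by glucocorticoids, had 505 and 580 CPM and then 713 and 716, 1.32 times the ZT0 level (0.40 ± 0.11). Fkbp5, the immunophilin that feeds back on the receptor, had 218 and 237 and then 279 and 268 (0.26 ± 0.09). Both genes kept their ZT4 libraries above ZT0, and both had an adjusted p of 0.758.

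Cholesterol and bile acid genes lost their positive medians without ZT0 replicate 1. The 23 cholesterol genes had a median of 0.10 and then -0.05. The 16 bile acid genes went from 0.16 to -0.05, and the exporter Abcc2 had 108 and 156 and then 162 and 157 CPM, so that only ZT0 replicate 1 was low. Cyp1a2, the highest of the 19 cytochrome P450 genes by log2 change, had 8.88 and 16.5 and then 18.9 and 20.7 (0.61 ± 0.23, and 0.26 without that library). In the glycogen list of 10 genes the median was 0.08, and -0.02 without ZT0 replicate 1. Of the 10, 2 were apart and higher and 1 apart and lower, beside 14.4% and 13.1% of all genes. The lower one was Gyg, the glycogenin primer (37.9 and 32.3, then 29.0 and 29.6 CPM), while liver phosphorylase Pygl had 92.3 and 105 and then 119 and 118.

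Among secreted and regulatory liver genes the same library stood out. The 28 plasma protein genes had a median of 0.14, and 0.01 without ZT0 replicate 1. Ahsg (fetuin A) had 23.3 and 27.5 and then 30.2 and 38.4 CPM, and prothrombin (F2) 40.5 and 50.7 and then 52.6 and 59.4. Of 20 hepatocyte transcription factors, 7 were apart and higher and 1 lower, beside 14.4% and 13.1% of all genes. Their median was 0.16 (0.06 without ZT0 replicate 1). Klf15, a factor of amino acid and glucose metabolism, had 79.7 and 82.9 and then 91.6 and 95.7 (0.20 ± 0.07, and 0.18 ± 0.08 without that library).

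The genes of the repair machinery itself had no shared direction. Of 28 nucleotide excision repair genes tested, 2 were apart and higher and 5 apart and lower, beside 14.4% and 13.1% of all genes. None had an unadjusted p under 0.05, and the median was -0.00 (-0.07 without ZT0 replicate 1). The smallest p-values belonged to Lig1, the ligase that can seal the patch, with 32.6 and 23.0 CPM at ZT0 and 19.4 and 22.0 at ZT4, and to Mnat1, a subunit of the TFIIH kinase, with 147 and 171 and then 148 and 138. In Lig1 the times lay apart and in Mnat1 they overlapped at the edge.

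Damage and stress genes were likewise mixed. Of 24 p53 targets, 5 were apart and higher and 3 lower, beside 14.4% and 13.1% of all genes. Their median was 0.05 (0.01 without ZT0 replicate 1). Mdm2, the ligase that degrades p53, had 48.5 and 50.4 and then 59.1 and 55.1 CPM (0.21 ± 0.09), whereas Sesn1 had 175 and 169 and then 148 and 152 (-0.20 ± 0.07). Of 17 immediate early genes, 6 were apart and higher and 2 lower (median 0.06, and 0.13 without ZT0 replicate 1), with Zfp36, the mRNA decay factor tristetraprolin, at 28.3 and 17.5 and then 16.4 and 14.8 (-0.54, and -0.17 without that library), and Fosb at 2.60 and 2.91 and then 4.66 and 3.54. The 15 heat shock and cold-inducible genes had a median of 0.05 (0.02 without ZT0 replicate 1), with Hspa4 at 78.9 and 94.1 and then 96.1 and 97.1 and Rbm3 at 9.42 and 11.5 and then 12.9 and 11.7. The 20 genes of the unfolded protein response had 0.05 with all libraries and -0.01 without that library, with Dnajc3 at 109 and 108 and then 120 and 119 and Pdia4 at 62.6 and 53.6 and then 51.5 and 51.8.

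Of the 25 genes of platinum transport and thiol defence, 8 were apart and higher and 1 lower, beside 14.4% and 13.1% of all genes. Their median was 0.10 (0.03 without ZT0 replicate 1). The exporter Abcc4 had 239 and 129 CPM and then 135 and 124, so that its log2 change of -0.50 ± 0.20 was 0.00 without ZT0 replicate 1. Of 24 ribosomal protein and ribosome biogenesis genes, 11 were apart and higher and 1 lower, and the median was 0.09 with and without that library. Rps9 had 9.63 and 10.6 and then 12.6 and 11.7 CPM, and Rrn3, a factor of RNA polymerase I, 85.7 and 97.7 and then 105 and 100.2.

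Endothelial, immune and mesenchymal markers followed ZT0 replicate 1 as well. All 14 endothelial markers had a negative log2 change with all libraries, with a median of -0.67, and the median was 0.27 without that library. Tek, the angiopoietin receptor, had 64.3 and 22.0 CPM and then 27.0 and 23.6 (-0.75 ± 0.35, and 0.20 ± 0.13 without it). Emcn, which encodes endomucin, had 25.7 and 9.85 and then 9.56 and 6.47. In both genes ZT0 replicate 1 was the high library. In Emcn both ZT4 libraries lay below both of ZT0, and its log2 change of -1.12 ± 0.37 was -0.29 without ZT0 replicate 1. Immune markers went from -0.07 to 0.38 and mesenchymal markers from -0.03 to 0.37. The 7 cholangiocyte markers summed to 199 CPM in ZT0 replicate 1, within the 134 to 263 of the other 11 liver libraries. Of the 7, 2 were above every other library in it, and their median went from 0.20 to 0.52.

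Gene length went with the sign of the step. The 391 genes higher at an unadjusted p under 0.05 had a median length of 16.0 kb, the 696 lower ones 53.4 kb and all genes tested 22.0 kb. By quartiles of length, the median log2 change was 0.04, 0.02, -0.01 and -0.10 from the shortest to the longest. Without ZT0 replicate 1 it was 0.08, 0.02, -0.01 and -0.03. In the longest quartile (52.2 to 2271 kb) ZT0 replicate 1 exceeded ZT0 replicate 2 by a median of 0.12, and ZT4 replicate 1 exceeded ZT4 replicate 2 by 0.07. Both libraries of 4.97% of these longest genes were higher at ZT4 and those of 18.1% were lower, against 20.2% and 9.00% of the shortest. The named lower genes Gfod1, Gas7, Robo1, Eml6, Fut8 and Npas2 all belong to the longest quartile. So do named higher genes, among them Zbtb16 (181.649 kb), Fhad1 (121.029 kb), Fkbp5 (87.397 kb) and Cpm (57.853 kb). Over 15 alternative settings, 2 of which removed each library's trend over length, the log2 change of Npas2 lay between -0.81 and -0.58 and that of Tef between 0.42 and 0.69.

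NTS reads numbered 1333813 and 2429565 in the ZT0 libraries and 2413215 and 2324418 in those of ZT4, far fewer than on the TS. On the NTS, 1 of 17998 genes (0.00556%) was called, and 925 (5.14%) had an unadjusted p under 0.05. The count was 4 without ZT0 replicate 1, 545 without ZT0 replicate 2 and 0 without ZT4 replicate 2. The gene called was Ren2, a renin gene (chromosome 1, 133350674 to 133360319, plus strand), at 11.1 and 26.9 CPM of NTS reads at ZT0 and 64.6 and 125 at ZT4. Its entry overlaps another on the same strand, and part of its reads cannot be assigned. Both ZT4 libraries were high, and the replicates within each time also lay well apart. The log2 change was 2.21 ± 0.29, 4.62 times the ZT0 level (adjusted p = 0.000736). It was 1.81 without ZT0 replicate 1 (adjusted p = 0.00616), and over the settings run its adjusted p reached 0.148, without ZT4 replicate 2. RefSeq (GRCm38.p6) lists Ren1 at this place, and C57BL/6 mice are known to carry Ren1 and no separate Ren2, so the name is kept here only as the tables give it. On the TS it had 0.541 and 0.991 CPM at ZT0 and 1.41 and 2.60 at ZT4.

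On the NTS no clock gene passed the edgeR test, and 3 had an unadjusted p under 0.05 (1 higher and 2 lower). The median log2 change of NTS reads was -0.15 over the 7 activator genes and 0.20 over the other 14, against -0.06 and 0.24 on the TS. Npas2 had 124 and 132 CPM of NTS reads at ZT0 and 86.4 and 83.7 at ZT4, below both ZT0 libraries as on the TS (-0.60 ± 0.16, adjusted p = 0.658). Of the 7 activator genes, 3 were apart and lower on the NTS and none higher, and of the 14 others 1 was apart each way, beside 13.7% of all genes apart and higher and 14.7% lower. The one just apart and lower was Nr1d1, at 142 and 89.9 and then 89.9 and 75.5 CPM, the NTS of which is in part the TS of Thra, the thyroid hormone receptor gene on the other strand.

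The test of the strand ratio asked whether the TS and NTS of a gene moved differently. It called 0 of 20178 genes (0.00%) in edgeR, with 808 (4.00%) at an unadjusted p under 0.05 and 324 called without ZT0 replicate 2. With all libraries 2 clock genes were among the 808, in opposite directions. Nr1d1 had a ratio change of 0.86 ± 0.26 (unadjusted p = 0.00308, adjusted p = 1.00). Per2 had 117 and 257 CPM of NTS reads at ZT0 and 218 and 318 at ZT4 (ratio change -0.73 ± 0.27, adjusted p = 1.00). Of all genic reads, 87.8% and 87.3% were on the TS at ZT0 and 87.4% and 86.5% at ZT4. The means were 87.5% ± 0.339 and 87.0% ± 0.653 (SD, n = 2), a difference of -0.54 percentage points. The exact permutation test (two-sided) gave p = 0.667, and 2 libraries against 2 cannot give less than 0.333. The 12 liver libraries spanned 86.1% to 89.0%.

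In kidney the same step called Npas2. Its TS level was 275 and 245 CPM at ZT0 and 131 and 127 at ZT4 (-1.02 ± 0.11, adjusted p = 0.00621), the single gene called of 19207 (0.00521%), while 1274 (6.63%) had an unadjusted p under 0.05. No gene was called without either of the kidney ZT4 libraries, 3 without kidney ZT0 replicate 1 and 530 without kidney ZT0 replicate 2. In liver it was -0.72 ± 0.14. The difference between the tissues was 0.29 ± 0.20 (unadjusted p = 0.159, adjusted p = 1.00), which did not pass the test. Cry1 had 62.2 and 104 and then 49.5 and 58.7 CPM in kidney (-0.61 ± 0.18), Tef 80.9 and 59.5 and then 99.6 and 91.2 (0.44 ± 0.12), and Dbp 11.1 and 9.01 and then 20.1 and 18.2 (0.92 ± 0.14). Unlike in liver, both kidney ZT4 libraries of Dbp lay above both of ZT0. Over the 21 clock genes, 17 had the same sign in both tissues, a share of 81.0%, beside 61.1% of all 18289 genes tested in both. The labels do not say whether kidney and liver came from the same mice.

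The test of the liver step against the kidney step called 0 of 19625 genes (0.00%) in edgeR, with 712 (3.63%) at an unadjusted p under 0.05. Without liver ZT0 replicate 2 it called 1028 and without liver ZT4 replicate 2 it called 12. Per2 had 147 and 176 CPM in kidney at ZT0 and 209 and 207 at ZT4, and its steps differed by -0.51 ± 0.21 (unadjusted p = 0.0256, adjusted p = 1.00). Bhlhe41, at 13 and 13.6 and then 12.5 and 14.2 CPM in kidney, differed by 0.81 ± 0.34 (unadjusted p = 0.0307) and Nfil3, at 71.8 and 80.1 and then 75.5 and 73.2, by 0.34 ± 0.13 (unadjusted p = 0.0160), both also with an adjusted p of 1.00. Among the genes named after their values were seen, Cpm had the smallest p for this difference, at 0.92 ± 0.18 (adjusted p = 0.554).

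**Figure D5:**
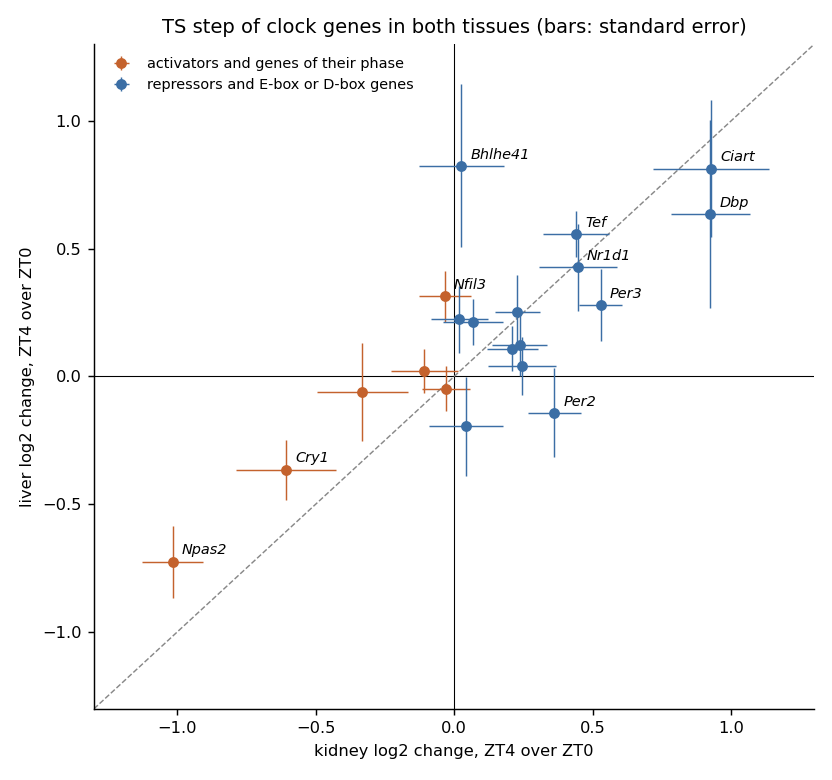
Log2 change from ZT0 to ZT4 of TS reads of 20 clock genes in kidney (x axis) and liver (y axis), with bars for the standard errors of each tissue's edgeR fit and a dashed line where the 2 are equal. Npas2 is lowest in both tissues (-1.02 and -0.72), and Bhlhe41 lies farthest above the line among the genes near 0 in kidney (0.03 and 0.82).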

How the data were processed

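The values come from gene tables of XR-seq libraries, with 1 table per strand and replicate number whose columns, per the file headers, are a read count and RPKM at each time. The deposited count values were used for every test and the deposited RPKM values only to recover library totals. The submitters' processing notes give mm10 as the build. No source used here names the aligner or how reads were counted. The extraction protocol names antibodies against lesions other than cisplatin adducts, while the treatment protocol names cisplatin. Of 25239 entries, 24203 name 1 symbol and were kept, 882 name none and 154 several. Entries left out held 2.91% to 2.98% of liver TS reads. Coordinates are 1-based. Entries that share a symbol were tested singly, 2894 overlap another on the same strand and 3508 one on the opposite strand, and reads of the shared parts cannot be assigned with certainty.

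Counts were tested with edgeR 4.0.16 (R 4.3.3; TMM, filterByExpr, glmQLFit, glmQLFTest) with Benjamini-Hochberg adjustment over all genes tested and a threshold of 0.05. The 12 libraries of a tissue entered a fit with 1 mean per time, and all 24 the test between tissues. The strand ratio was tested as the interaction of strand and time with the library as a block. Scripts were tested on simulated data. Alternatives were DESeq2 1.42.0, other scaling, filters, samples, length and overlap settings, a replicate block, and, chosen after seeing the data, limma 3.58.1 voom with library weights. The step, the 26 gene lists (421 of 426 genes are in the tables) and the alternatives were chosen with earlier results of these data known. Named genes are all tested clock genes and, in each other list, up to 4 called members or else the 2 of smallest p. For calls, the rule took the 12 largest each way on the TS and the 5 largest elsewhere. Values of 3 genes that the rule took are not reported here, though they count in their lists.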

Additional observations from a re-analysis of the deposited data

How the results depend on the processing

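With all 12 liver libraries edgeR called no gene in the TS step, and the count was also 0 under 11 of 15 alternatives, among them other scaling, other filters, the replicate block, the fit without either ZT4 library and limma voom with library weights (188 genes at an unadjusted p under 0.05). The weights were 0.257 and 0.342 for the ZT0 libraries and 1.14 to 1.47 for the others. DESeq2 called 17 entries, and the length trend removed with the replicate block called 5, all overlapping entries of 1810053B23Rik. Leaving out 1 library gave 0 to 2524 genes in the TS step (8 without ZT0 replicate 1, 2524 without ZT0 replicate 2), 0 to 545 on the NTS (545 without ZT0 replicate 2, 0 without ZT4 replicate 2), 0 to 324 in the strand ratio (324 without ZT0 replicate 2) and 0 to 530 in kidney (530 without kidney ZT0 replicate 2, 0 without either ZT4 library). It gave 0 to 1028 between the tissues, where liver libraries alone were left out (1028 without liver ZT0 replicate 2, 12 without liver ZT4 replicate 2). Where 1 library is left at a time, it is assumed to vary like those of other times. The labels do not say that replicate numbers pair the libraries, and they were not treated as pairs. Deviations of same-numbered libraries correlated at -0.14 to 0.23 over the 15 pairs of times, above 0.1 in 6 of them and highest, at 0.23, for ZT0 and ZT4. With the replicate block the counts were 0 in the TS step, 2 on the NTS, 4 in the strand ratio, 13 in kidney and 0 between the tissues. Without a filter on low counts they were 0, 34, 3, 6 and 0. The TS share difference ranged from -1.01 to -0.08 percentage points when 1 library was left out. The cause of these shifts was not tested.

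Of the 87 entries named by the rule or after their values were seen, 74 kept their sign under every alternative run. Many were picked by their p-values in these same fits, and the overlapping entries of 1810053B23Rik count as 1 observation. The count is therefore a description, and the share over all genes is not given here. The sign of Arntl turned with the length trend removed (0.040 with and without the replicate block), as did that of Clock (0.037 without the block and 0.038 with it). Leaving out 1 library gave -0.16 to 0.077 for Clock, -0.046 to 0.087 for Rora, -0.0049 to 0.086 for Per1, -0.51 to 0.15 for Per2, -0.042 to 1.57 for Dbp, -0.038 to 0.29 for Usp2 and -0.52 to 0.26 for Wee1. It gave -0.89 to 0.0047 for Abcc4, -1.35 to 0.20 for Tek, -0.11 to 1.03 for Epcam, -0.047 to 1.17 for Lrp2 and -1.47 to 0.71 for Gm29685.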

Other observations

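Values of 5 genes on the NTS, chosen after they were seen, are given as a description. Sox13, which encodes a SOX family transcription factor (chromosome 1, 133382300 to 133424212, minus strand), has its 3′ end 22.0 kb beyond the end of Ren2, which is on the other strand. Its NTS reads were 82.4 and 99.0 CPM at ZT0 and 168 and 172 at ZT4, 1.86 times the ZT0 level (log2 change 0.90 ± 0.17, edgeR's adjusted p = 0.121), while its TS reads were 153 and 140 and then 144 and 159 CPM. At ZT8 the NTS reads of Sox13 stood at 220 and 229 CPM and those of Ren2 at 187 and 147, and by ZT20 they were 115 and 125 and 22.1 and 21.9. On the NTS both neighbours were higher in every library of ZT4 and ZT8 than in those of ZT0.

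Hectd2, a HECT ubiquitin ligase gene (chromosome 19, 36554639 to 36621135, plus strand), went the other way. Its NTS reads were 153 and 250 CPM at ZT0 and 96.0 and 95.9 at ZT4 (-1.09 ± 0.22, edgeR's adjusted p = 0.243), and 23.5 and 26.3 at ZT8. Its TS reads were 65.4 and 98.9 and then 85.2 and 82.9. Hectd2 overlaps 1500017E21Rik on the other strand, whose TS is there the NTS of Hectd2. Without ZT0 replicate 1 the change was -1.38 (adjusted p = 0.00560).

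She, an adaptor protein gene, had the smallest p in the test of the strand ratio (-1.48 ± 0.28, edgeR's adjusted p = 0.202, and 1.00 without ZT0 replicate 1). Its NTS reads were 49.0 and 35.6 CPM at ZT0 and 99.5 and 62.9 at ZT4, and its TS reads 50.9 and 17.0 and then 22.2 and 18.8, with ZT0 replicate 1 the high one. Thra had 101 and 120 CPM of NTS reads at ZT0 and 193 and 201 at ZT4 (0.82 ± 0.21, edgeR's adjusted p = 0.598), of which the part inside Nr1d1 is that gene's TS.

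Kidney tubule markers were highest in ZT4 replicate 1 of the 12 liver libraries. The 8 tested markers summed to 44.3 CPM there, 24.9 in ZT4 replicate 2, 18.3 and 23.7 at ZT0 and 17.9 to 29.5 in the other 8 libraries. Lrp2, the megalin receptor of the proximal tubule, had 5.63 and 6.57 CPM at ZT0 and 13.8 and 5.94 at ZT4, and Slc12a3, the cotransporter of the distal tubule, 4.65 and 9.66 and then 14.7 and 11.4. The median log2 change of the 8 was 0.76, and 0.57 without ZT0 replicate 1.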
